A study of Homo sapiens with 6 samples.

Results

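In KNS42 cells, a line established from a glioblastoma (a malignant glial brain tumor) of childhood, the 10 ERK feedback genes DUSP4, DUSP5, DUSP6, SPRY1, SPRY2, SPRY4, SPRED1, SPRED2, ETV4 and ETV5 were followed. They were chosen by name, as genes that ERK signaling is known to induce, with earlier results of these data known. All 10 were found among the 58174 genes of the deposited table. Polyadenylated RNA was sequenced from KNS42 cells transfected with a control siRNA (siC, n = 3 libraries) or with a pool of siRNAs against MSI1 (siMSI1, n = 3 libraries) and harvested 72 h later. All cells were grown in serum-containing medium, and both groups carry a transfected siRNA. The comparison asks how the mRNA of each gene differs once MSI1, an RNA-binding protein of neural stem cells, is depleted. It covers 1 cell line, and 1 siRNA pool whose effects through other mRNAs cannot be told apart from those through MSI1. The sources used here do not say whether the 3 libraries of a group came from separate cultures, so the p-values measure the spread between these libraries, which may be technical.

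ERK is the last kinase of the RAS-RAF-MEK-ERK cascade, which carries signals from growth factor receptors to the nucleus. Active ERK switches on genes that in turn restrain it. The DUSP genes encode phosphatases that remove the activating phosphates from MAP kinases, the Sprouty (SPRY) and SPRED proteins act further up at the level of receptors, RAS and RAF, and ETV4 and ETV5 are transcription factors of the ETS family that carry part of the transcriptional response. In glioma the pathway is commonly driven by receptor tyrosine kinases, and the mRNAs of these genes are widely used as readouts of its activity.

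The libraries held 13087025 to 18024080 reads on genes, recovered from the FPKM values (reads scaled by gene length and by library depth). The targeted gene MSI1 had 61.9 to 66.9 FPKM in the siC libraries and 11.2 to 12.3 FPKM after transfection of the siRNA pool. Of 12 neural and glioma markers, MSI1 and MSI2 among them, VIM, SOX2, CD44 and NES were abundant. Their means were 1035, 300.6, 84.8 and 69.2 FPKM in siC and 865, 257, 61.9 and 61.8 FPKM in siMSI1. The glial gene GFAP was low, at 1.63 and 4.61 FPKM, PROM1 was at 0.926 and 0.584 FPKM, NCAM1 was at 0.0357 and 0.0334 FPKM, and S100B was at 0 reads in all libraries. The sum of the list ran from 1592 to 1657 FPKM in siC and from 1269 to 1368 FPKM in siMSI1. Of its 10 tested genes, 1 (GFAP) was higher and 4 (MSI1, CD44, SOX9 and FABP7) were lower past the threshold used below. None of 15 markers of blood, endothelial, epithelial, myelin and liver cells reached a mean of 0.5 FPKM, and AIF1 and MOG were at 0. The summed level of these 15 ran from 0.548 to 1.07 FPKM in siC and from 1.15 to 1.46 FPKM in siMSI1. That of 20 proliferation markers ran from 1204 to 1215 FPKM in siC and from 949 to 1010 FPKM in siMSI1, with 12 of the 20 lower past the threshold used below. The sums of all 3 lists therefore differed between the groups. That of the 15 markers rested on few reads per gene. VIM, which was not past the threshold, made up most of the neural sum. The part of these lists in the results on the feedback genes was not tested.

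Upon MSI1 knockdown, SPRY2 was the feedback gene whose mRNA rose past the threshold. SPRY1, SPRY4, DUSP5 and, by a small margin, SPRED2 had higher values in every siMSI1 library without passing the threshold. DUSP6 did not separate the groups, and the scarce ETV4 mRNA had lower values in every siMSI1 library. The test was limma on log2(FPKM + 0.1), run on 15069 genes whose mean over the 6 libraries reached 0.5 FPKM, with Benjamini-Hochberg adjustment over all of them and a threshold of 0.01 on the adjusted p. Of the 10 genes, 8 entered the test, while ETV4 and DUSP4 were below the filter. SPRY1 passed the filter through siMSI1, since its mean in siC was 0.471 FPKM. 1 of the 8 tested genes was higher past the threshold and 0 were lower, where 5.15% of all tested genes were higher and 5.83% lower (11.0% in either direction). An unadjusted p under 0.05 was reached by 3 of the 8 (SPRY1, SPRY2 and SPRY4), all higher, while 38.3% of all tested genes reached it in either direction and 19.0% on the higher side. Over both directions the share of members is near that background. 0 members were lower at that level, and voom on the recovered reads also called 0 lower. Without SPRY1, the median log2 fold change of the other 7 tested genes was 0.23, with 6 of them above 0, beside a median of 0.00 over all tested genes. With SPRY1 it was 0.35. In these bulk libraries, fewer cells that carry an mRNA and less of that mRNA per cell cannot be told apart.

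**Figure D1:**
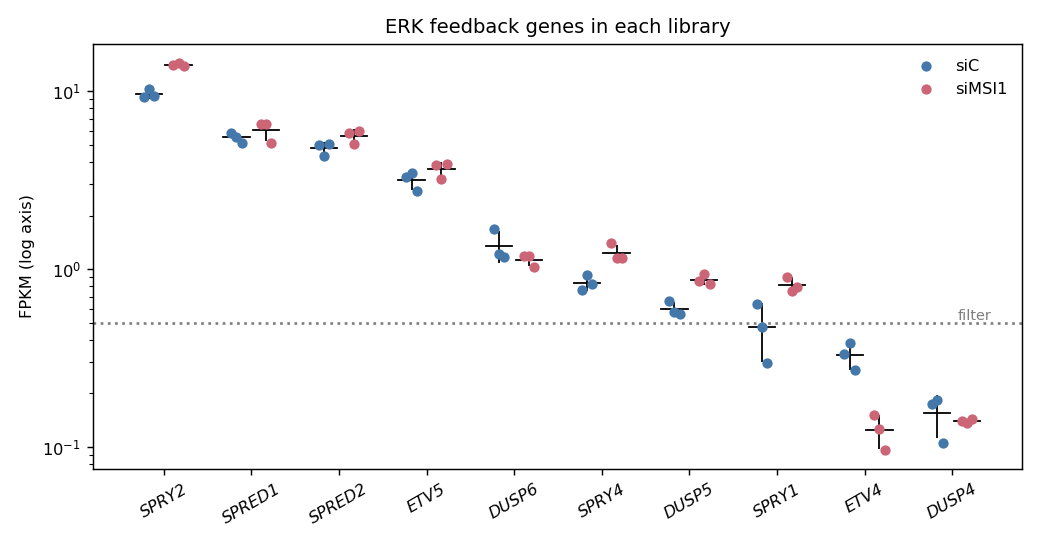
FPKM of each ERK feedback gene (log axis) in the 3 siC and 3 siMSI1 libraries, ordered by the mean in siC. Points are libraries, horizontal lines are group means, vertical lines are ± 1 SD, and the dotted line marks the filter at a mean of 0.5 FPKM. SPRY2 is the highest gene in both groups, and its siMSI1 points, from 13.9 to 14.4 FPKM, lie above its siC points, from 9.27 to 10.3 FPKM.

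Among the Sprouty genes, whose products are induced by growth factors and damp signaling from receptors to RAS and ERK, SPRY2 was by far the most abundant. It took 86.8% to 89.4% of the FPKM summed over SPRY1, SPRY2 and SPRY4 in siC and 85.9% to 88.3% in siMSI1. SPRY3, a Sprouty gene outside the feedback genes, is not in this sum and was below the filter. Its values were 0.451, 0.417 and 0.331 FPKM in siC and 0.196, 0.271 and 0.201 FPKM in siMSI1. All siMSI1 libraries of SPRY3 were thus below all siC libraries, on 43 to 68 siC reads against 26 to 32 siMSI1 reads. SPRY2 (ENSG00000136158) spans positions 80335976 to 80341126 of chromosome 13 (GRCh38, minus strand). Its level was 9.27, 10.3 and 9.40 FPKM in siC replicates 1 to 3 and 14.0, 14.4 and 13.9 FPKM in siMSI1 replicates 1 to 3. The groups were well apart, and the spread within each group was small, on 411 to 568 reads in a siC library and 572 to 629 in a siMSI1 library. The means were 9.67 ± 0.580 and 14.1 ± 0.241 FPKM (SD, n = 3 each), so the log2 fold change came to 0.54 (standard error 0.070, 95% interval 0.38 to 0.70, adjusted p = 0.0017 from limma) or 1.45-fold. The call was lost when siC replicate 1 was left out (log2 fold change 0.51, adjusted p = 0.0139), and the adjusted p was between 0.0033 and 0.0093 when any other library was left out.

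SPRY4, a relative with the same domain layout, is on chromosome 5 from 142310427 to 142326455 (minus strand). It had 0.765, 0.923 and 0.821 FPKM in the siC libraries and 1.40, 1.16 and 1.15 FPKM after MSI1 knockdown. The groups did not overlap, and siMSI1 replicate 1 was the highest library. Its log2 fold change of 0.51 was close to that of SPRY2, but on 68 to 122 reads the standard error was 0.179 and the adjusted p was 0.073 (limma). SPRY1, on chromosome 4 from 123396795 to 123403760 (plus strand), gave 0.640, 0.474 and 0.298 FPKM in the siC libraries and 0.907, 0.751 and 0.791 FPKM after MSI1 knockdown. Its siC libraries spread widely, from 17 to 38 reads, and every siMSI1 library was above them. The log2 fold change was 0.72 with a 95% interval from 0.00 to 1.45 (adjusted p = 0.13 from limma), so the estimate for SPRY1 was larger and less precise than that for SPRY2. The summed mRNA of SPRY1, SPRY2 and SPRY4 was at 11.0 ± 0.658 FPKM in siC and at 16.2 ± 0.279 FPKM in siMSI1 (SD, n = 3 each). In all 3 genes the canonical transcript holds its whole coding sequence in 1 exon, of 957 bases in SPRY1, 945 in SPRY2 and 897 in SPRY4. The other 7 feedback genes have 3 to 12 coding exons.

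Because SPRY2 carries the result, the window around its outermost annotated start site is shown, from 250 bases before it to 50 bases after it (RefSeq, GRCh38.p14, chr13:80341077-80341376, minus strand). The capitals mark the ETS core CCGGAA, searched on both strands, whose first base is at position -142 relative to the start.

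SPRY2 promoter: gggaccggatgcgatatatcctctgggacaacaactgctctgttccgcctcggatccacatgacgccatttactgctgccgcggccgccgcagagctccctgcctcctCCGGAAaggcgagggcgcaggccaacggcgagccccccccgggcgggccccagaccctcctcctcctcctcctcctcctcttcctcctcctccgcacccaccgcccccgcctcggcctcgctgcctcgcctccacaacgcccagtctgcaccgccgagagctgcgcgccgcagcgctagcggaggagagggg

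The RefSeq table used holds 10 such windows for 6 of the 10 genes (DUSP6, SPRY1, SPRY2, SPRY4, SPRED1 and SPRED2). The ETS core was found in 2 of these windows, 1 of SPRY2 and 1 of SPRY1, and in 17.2% of all 35116 windows of the table. The AP-1 element TGANTCA was found in 1 window, of SPRED2, against 7.71% of all windows. The cAMP response element TGACGTCA was found in 0 of the 10, against 1.85%. These are matches of letters, and no binding was measured here.

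The study asked how MSI1 and miRNAs act on 3′UTRs, with miR-27b-3p and miR-143-3p among its miRNAs. The longest annotated 3′UTR of each feedback gene (GENCODE release 44) was therefore searched for seed matches of both miRNAs and for Musashi words. The miRNAs themselves were not measured in these libraries. Their mature sequences are shown with the seed, bases 2 to 8, in capitals (RefSeq, GRCh38.p14).

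hsa-miR-27b-3p: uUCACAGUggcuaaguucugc

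hsa-miR-143-3p: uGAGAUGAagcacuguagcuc

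A match to the whole miR-27b-3p seed (ACUGUGA) was found once each in DUSP5, SPRY2 and SPRY4, and in 21.5% of the 11290 tested protein-coding genes with a 3′UTR of at least 30 bases. A match to the miR-143-3p seed (UCAUCUC) was found in DUSP4 alone among the 10, against 18.3% of those genes. The 3 miR-27b-3p matches are printed in capitals, each with 9 bases on either side. They lie in the 3′UTR at chr10:110510463-110510469 (plus strand, DUSP5), chr13:80336370-80336376 (minus strand, SPRY2) and chr5:142310804-142310810 (minus strand, SPRY4).

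DUSP5 site: ccaagagcaACUGUGAuuuuuguuu

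SPRY2 site: auauuugcaACUGUGAaaaacaagu

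SPRY4 site: ccucugcuuACUGUGAcagucgaug

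These matches are a description of letters and no binding was measured. The words GUAGU and AUAGU are 2 forms of the short motif that Musashi proteins are known to bind. The SPRY2 3′UTR of 782 bases holds AUAGU 3 times (3.84 per kilobase) and no GUAGU, while over the 3′UTRs of the tested protein-coding genes AUAGU occurs 0.828 times and GUAGU 0.652 times per kilobase. The ETV4 3′UTR, of 675 bases, holds neither word. All other feedback genes hold AUAGU, as do 59.7% of the tested protein-coding genes. Its density per kilobase was 2.71 in DUSP5, 2.15 in SPRED1 and 1.72 in ETV5, which were not past the threshold. In the remaining carriers it ran from 0.505 (DUSP4) to 0.991 (DUSP6). SPRED1 has the longest 3′UTR of the 10, of 5585 bases, with 12 AUAGU and 4 GUAGU. The 3 words of SPRY2 are shown in capitals with 10 bases on either side, at chr13:80336642-80336646, chr13:80336470-80336474 and chr13:80336048-80336052 on the minus strand, in this order.

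SPRY2 word 1: gaaaggugggAUAGUcuuugcuguu

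SPRY2 word 2: uuguuugugaAUAGUacuugcaaaa

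SPRY2 word 3: ugaggaugugAUAGUugcugcaaau

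The SPRED proteins are relatives of Sprouty, and SPRED1 brings neurofibromin, a GTPase-activating protein of RAS, to the membrane. SPRED1, on chromosome 15 from 38252836 to 38357249 (plus strand), gave 5.83, 5.55 and 5.13 FPKM in the siC libraries and 6.59, 6.54 and 5.14 FPKM after MSI1 knockdown. The groups overlapped, since siMSI1 replicate 3 lay among the siC libraries, and the log2 fold change was 0.14 (95% interval -0.13 to 0.40, adjusted p = 0.43 from limma). SPRED2, on chromosome 2 from 65310851 to 65432637 (minus strand), gave 5.00, 4.31 and 5.03 FPKM in the siC libraries and 5.84, 5.03 and 5.97 FPKM after MSI1 knockdown. Its groups were separated only by the margin between siC replicate 3 and siMSI1 replicate 2, with a log2 fold change of 0.23 (95% interval -0.02 to 0.47, adjusted p = 0.15 from limma). Both genes had 340 to 829 reads per library.

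Of the phosphatases, DUSP6 is the cytoplasmic one that is selective for ERK, DUSP5 is its nuclear counterpart, and DUSP4 is a nuclear phosphatase that acts on several MAP kinases. DUSP6, on chromosome 12 from 89347235 to 89352501 (minus strand), gave 1.67, 1.22 and 1.17 FPKM in the siC libraries and 1.19, 1.19 and 1.02 FPKM after MSI1 knockdown. siC replicate 1 stood above the other 5 libraries, which lay close together. The log2 fold change was -0.23 (95% interval -0.65 to 0.20, adjusted p = 0.41 from limma) with all libraries and -0.07 without siC replicate 1. DUSP5, on chromosome 10 from 110497907 to 110511533 (plus strand), gave 0.664, 0.571 and 0.558 FPKM in the siC libraries and 0.856, 0.933 and 0.825 FPKM after MSI1 knockdown. The groups did not overlap, but on only 21 to 33 reads the estimate of 0.48 on the log2 scale had a standard error of 0.220 (adjusted p = 0.15 from limma). DUSP4, on chromosome 8 from 29333064 to 29350684 (minus strand), was below the filter at 0.175, 0.183 and 0.105 FPKM in siC and 0.140, 0.137 and 0.144 FPKM in siMSI1. These are 11 to 24 reads per library. The groups overlapped, and the log2 fold change was -0.07 with a standard error of 0.30 (limma with no filter on low genes, adjusted p = 0.92), so a small difference was not detectable at this depth. Summed over the 3 phosphatases, the level was 2.105 ± 0.357 FPKM in siC and 2.143 ± 0.136 FPKM in siMSI1 (SD, n = 3 each).

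ETV4 and ETV5, close relatives among the ETS factors, were expressed at very different levels. ETV5, on chromosome 3 from 186046314 to 186110318 (minus strand), gave 3.30, 3.46 and 2.76 FPKM in the siC libraries and 3.85, 3.21 and 3.88 FPKM after MSI1 knockdown. The groups overlapped, and the log2 fold change was 0.20 (95% interval -0.10 to 0.49, adjusted p = 0.30 from limma). ETV4, on chromosome 17 from 43527844 to 43579620 (minus strand), gave 0.333, 0.383 and 0.270 FPKM in the siC libraries and 0.150, 0.127 and 0.0965 FPKM after MSI1 knockdown. All siMSI1 libraries were below all siC libraries, on 14 to 25 siC reads against 5 to 8 siMSI1 reads, and the siMSI1 mean was 37.9% of the siC mean. ETV4 was not past the threshold in the fits that included it. With no filter on low genes, the log2 fold change came to -0.93 (limma, standard error 0.283, adjusted p = 0.10), and with voom on genes with at least 10 reads on average, a fit added after the data were seen, it was -1.35 (adjusted p = 0.012). The gene DHX8 overlaps ETV4 on the opposite strand with 1028 to 1390 reads and a limma log2 fold change of 0.16 (adjusted p = 0.24). The library preparation kept strand, but whether the counting used it is not given in the sources used here, so DHX8 reads may be among the few of ETV4. None of the annotated genes that overlap the other members had more than 10 reads in a library.

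**Figure D2:**
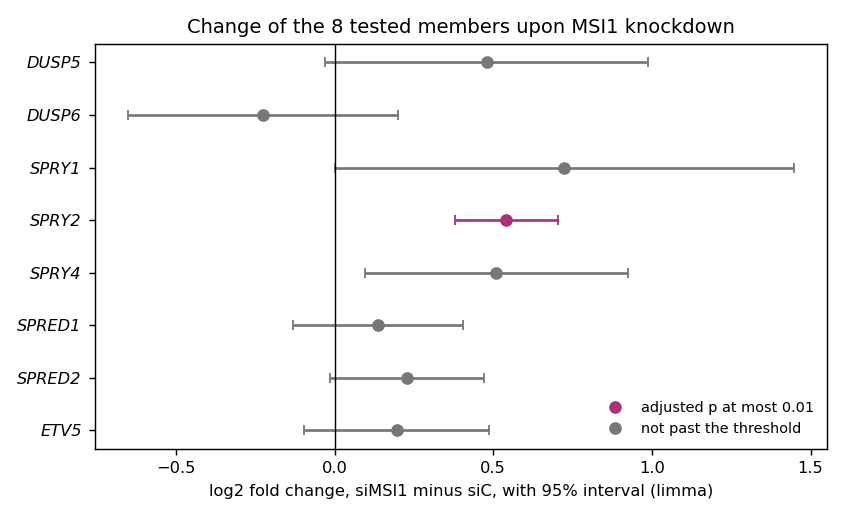
log2 fold change (siMSI1 minus siC, x axis) of the 8 tested feedback genes (y axis), with 95% intervals from limma. The interval of SPRY2 runs from 0.38 to 0.70 and that of DUSP6 from -0.65 to 0.20, and SPRY2 is the gene past the adjusted p of 0.01.

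In siC the genes were ordered SPRY2, SPRED1, SPRED2, ETV5, DUSP6, SPRY4, DUSP5, SPRY1, ETV4 and DUSP4 by FPKM, a level per length of gene. In this order the libraries of DUSP5 and SPRY1 and those of SPRY1 and ETV4 overlapped, while all other neighbours were separate. In siMSI1, SPRY4 stood above DUSP6 and DUSP4 above ETV4 by their means, with overlapping libraries in both pairs, and the libraries of SPRED1 and SPRED2 and those of DUSP5 and SPRY1 overlapped as well. The ratio of SPRY2 to DUSP6 was 5.55, 8.49 and 8.03 in siC and 11.8, 12.1 and 13.6 in siMSI1, so every siMSI1 library was above every siC library. The two-sided exact permutation test gave p = 0.1, which is as low as it can go with 3 libraries a group. The ratio of ETV5 to ETV4 ran from 9.03 to 10.2 in siC and from 25.3 to 40.2 in siMSI1 (exact permutation p = 0.1), on the few ETV4 reads named above. SPRY2 over SPRED1 ran from 1.59 to 1.86 in siC and from 2.13 to 2.70 in siMSI1, and SPRY2 over ETV5 from 2.81 to 3.41 and from 3.58 to 4.48 (exact permutation p = 0.1 for each). These 4 ratios were the ones computed, they were chosen with the values known, and their p-values were not adjusted. Of all 10 genes, 6 had groups that did not overlap, 5 higher (DUSP5, SPRY1, SPRY2, SPRY4 and SPRED2) and 1 lower (ETV4) in siMSI1. Such separation was seen for 42.8% of the tested genes (21.4% higher and 21.5% lower) and for 26.4% of all genes above 0 in a library, so it is common in these data. SPRY1 is among the tested genes only through its siMSI1 values.

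The calls on the feedback genes were then set beside other ways of testing. With no filter on low genes, limma called SPRY2 alone of the 10, where 1.18% of 29846 genes were higher and 1.47% lower (2.65% in either direction). At an adjusted p of 0.05, SPRY2 was again the one called, where 12.2% of the tested genes were higher and 12.9% lower (25.1% in all). With voom on recovered reads it was SPRY2 alone, where 8.81% of genes were higher and 10.1% lower (18.9% in all). The same held for voom on genes with at least 10 reads on average, where 9.08% were higher and 10.5% lower (19.6% in all). With the replicate number as a block in limma, SPRY2 was called beside 7.15% of genes higher and 7.78% lower (14.9% in all). SPRY4 joined SPRY2 in voom with that block (adjusted p = 0.0061), a fit that called 33.6% of all genes, 16.6% higher and 17.1% lower.

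**Figure D3:**
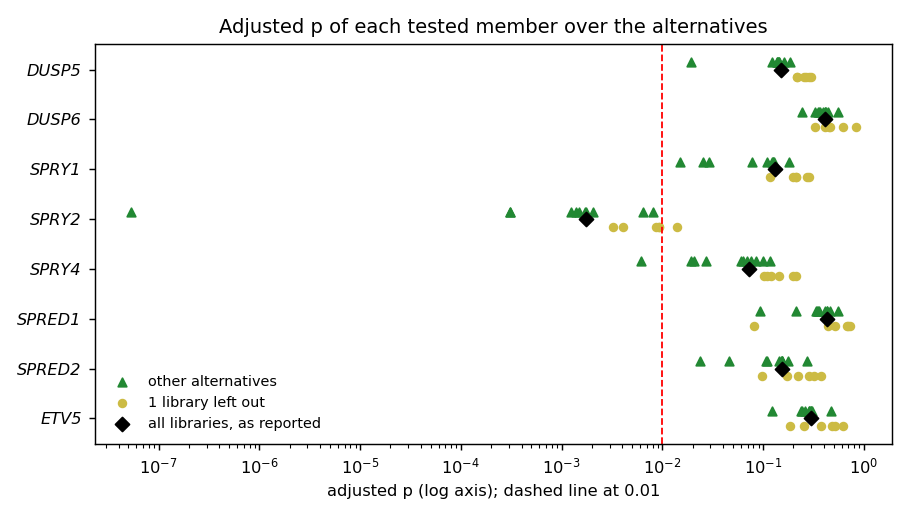
Adjusted p (log axis) of each tested feedback gene with all libraries as reported (diamonds), with 1 library left out (circles) and under the other alternatives (triangles), with the threshold of 0.01 as a dashed line. SPRY2 crosses the threshold once, at 0.0139 without siC replicate 1, and SPRY4 is past it once, at 0.0061.

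Other genes of the same families and of the pathway were counted from lists, which were chosen with earlier results of these data known. The share to set beside each list is that of all tested genes, 5.15% higher and 5.83% lower past the threshold. Of 10 further members of these families, 5 were tested, and limma called 0 of them, with a median log2 fold change of 0.29. DUSP1, named after its values were seen, was nearest to the threshold. For this gene, an immediate-early MAP kinase phosphatase, the mean was 4.14 FPKM in siC and 6.47 FPKM in siMSI1 (log2 fold change 0.64, limma adjusted p = 0.0135). Among 18 other genes that are known outputs of ERK, 14 were tested, and 4 rose and 0 fell past the threshold. Of the 14, 8 had a log2 fold change above 0 and 6 below, with a median of 0.19. FOSL1, an AP-1 subunit, rose from 11.8 to 35.7 FPKM on average (log2 fold change 1.59, adjusted p = 0.00021). KCNN4, a calcium-activated potassium channel, rose by 1.43 on the log2 scale (adjusted p = 0.0010), and LIF, a cytokine, by 0.91 (adjusted p = 0.00027). PHLDA1 rose by 0.71 (adjusted p = 0.0065), and its adjusted p was above 0.01 whenever any 1 of the 6 libraries was left out (0.0107 to 0.0296). These adjusted p-values are from limma.

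Of 24 genes of the cascade itself, 22 were tested, 10 with a log2 fold change above 0 and 12 below. Their median was -0.03. Among them KSR1, a scaffold of RAF, MEK and ERK, rose by 0.44 on the log2 scale (limma adjusted p = 0.0089). This call was lost when any 1 library was left out (0.0198 to 0.0331). Of 16 receptors, 11 were tested, with 2 higher and 1 lower past the threshold and a median log2 fold change of 0.20. The receptor tyrosine kinase AXL rose from 3.14 to 6.42 FPKM on average (adjusted p = 0.0033), and IGF1R, the receptor of insulin-like growth factors, rose by 0.52 on the log2 scale (adjusted p = 0.0025). FGFR1 is a receptor for fibroblast growth factors, which are classic inducers of the SPRY and ETV genes, and it fell from 11.4 to 6.36 FPKM on average (log2 fold change -0.83, adjusted p = 0.0011). The calls of AXL and IGF1R were each kept in 2 of the 6 fits that left out 1 library. Of 15 brakes on RAS and ERK outside these families, 14 were tested, and 2 rose and 0 fell past the threshold. Their median log2 fold change was 0.21. DAB2IP, a GTPase-activating protein of RAS, rose from 3.40 to 6.91 FPKM on average (adjusted p = 0.00044). PEA15, which holds ERK in the cytoplasm, rose by 0.41 on the log2 scale (adjusted p = 0.0082, kept in 2 of those 6 fits). These adjusted p-values are from limma as well.

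**Figure D4:**
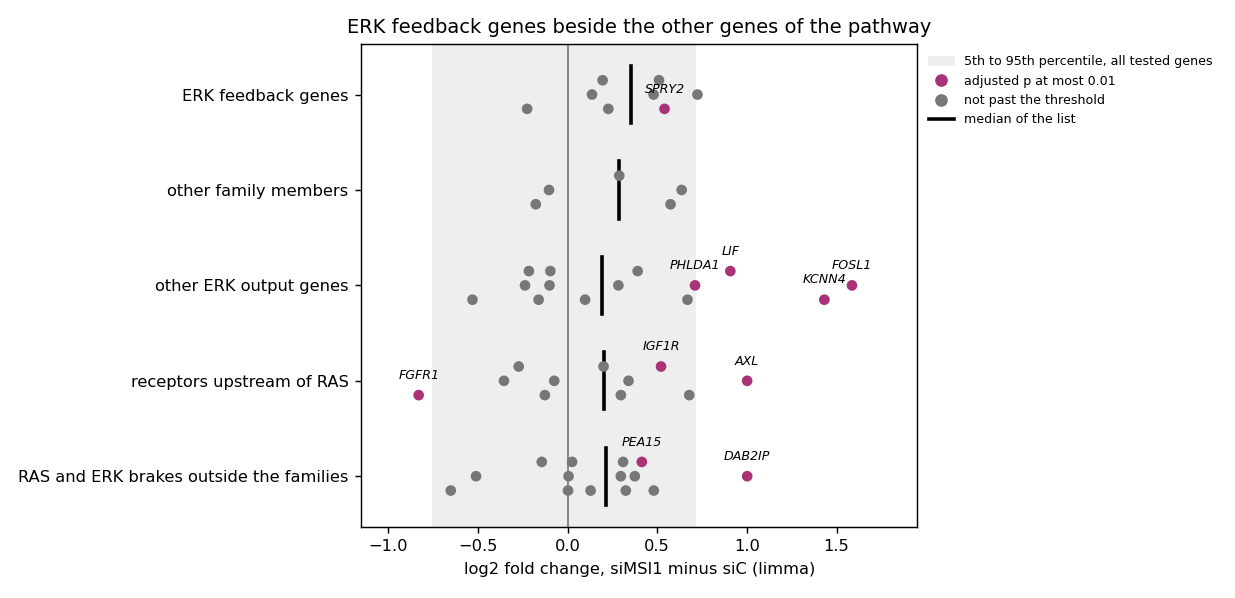
log2 fold change (siMSI1 minus siC, x axis) of each tested gene of 5 lists on the ERK pathway (y axis), with the median of each list as a black line and the 5th to 95th percentile of all tested genes in grey. SPRY2 is the feedback gene past the adjusted p of 0.01, and FOSL1 (1.59) and FGFR1 (-0.83) are the highest and lowest of the points in color.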

How the data were processed

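Polyadenylated RNA of KNS42 cells was sequenced in 6 libraries, grouped by the sample titles. The authors clipped reads with Cutadapt (1.14), aligned them to GRCh38 with HISAT2 (2.1.0), counted them per gene with featureCounts (1.5.3) on Ensembl annotation and deposited 1 table of FPKM per library. Its columns of the authors' own edgeR (3.18.1) comparison, a fold change, p-value and FDR, were not used. FPKM times gene length was divided by its smallest value above 0 in each library, taken as 1 read. This gave whole reads for 100% of values above 0 (tolerance 0.01 reads). The library depth implied by the FPKM was 0.977 to 1.025 times the summed reads.

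limma (3.58.1, R 4.3.3) was fitted to log2(FPKM + 0.1) without a block (lmFit, then eBayes with trend and robust), which understates the change of low genes. The members and lists were chosen with earlier results of these data known. Named were all members, MSI1 and, per pathway list, up to 4 called genes with the largest change and a mean of at least 1 FPKM. A called gene of the cascade list is not reported here. Depth limits the precision of each gene through its reads, and limits of detection cover counting error only. Of 58174 identifiers, 98.7% were found in GENCODE release 44. Alternatives were other added values (1 and 0.01), filters, scalings, moderation and thresholds, voom on recovered reads, the replicate number as a block, and each library left out. Python 3.11.15 with pandas 2.3.3 and SciPy 1.17.1 was used for the rest.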

Additional observations from a re-analysis of the deposited data

How the results depend on the processing

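Each of the 10 feedback genes kept the direction of its log2 fold change in every alternative that tested it, 16 or 17 for the tested genes and, beside the fit with no filter, 1 each for ETV4 and DUSP4. SPRY2 was past the adjusted p of 0.01 in 16 of its 17 alternatives, with log2 fold changes from 0.50 to 0.59. The number of feedback genes higher past the threshold was 1, was 0 when a 2-fold change was also asked, was 2 (SPRY2 and SPRY4, with 33.6% of all genes called) by voom on recovered reads with a replicate block, and lay between 0 and 1 when each library was left out in turn. The number lower was 0 throughout. The count of all genes past the threshold was 1655 and moved more. It was 792 with no filter on low genes, 847 with eBayes without trend and robust, 3787 at an adjusted p of 0.05, 294 with a 2-fold change in addition, 2855 by voom on recovered reads, 2990 by voom on genes with at least 10 reads on average (chosen after the data were seen) and 5070 by voom with a replicate block, and it lay between 517 (without siC replicate 1) and 1603 with 1 library left out. In limma on FPKM, the replicate block gave 2250 genes and SPRY2 as the feedback gene called. Whether libraries with the same replicate number belong together is not stated in the sources used here. The correlation of their deviations from the group means was -0.066, 0.078 and 0.083 for numbers 1 to 3. Between different numbers it ran from -0.144 to 0.070. Numbers 2 and 3 were nearest to their own number and number 1 was not, so these values do not settle the pairing. The cause of these shifts was not tested. Reads per library, 5 to 829 for the feedback genes, limit what can be seen for DUSP4, DUSP5, ETV4 and SPRY1.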
